A study of Homo sapiens with 14 samples.

Results

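Binding of the untagged GATA3 point mutant G444E was compared with that of untagged wildtype GATA3 (WT) in MDA-MB-231 cells. This long-used human breast cancer line is triple-negative, lacking the receptors for oestrogen, progesterone and HER2, and has mesenchymal features. The comparison used 4 of the 14 labelled samples, 2 libraries of each genotype, each a chromatin immunoprecipitation with an antibody against GATA3 followed by sequencing (ChIP-seq) from untreated cells harvested on day 3. The 4 libraries had 112264 peaks, and joining those that overlapped by at least 1 bp gave 47173 regions. Merging the lists of all 12 GATA3 samples gave 78999. The other 8 GATA3 libraries carried the mutant A442M without a tag, or WT, A442M or G444E with a FLAG tag on the C-terminal end. They served only to see where the regions recurred and to compare features of the lists. All 4 libraries compared shared the cell line, the antibody and the absence of a tag. The sources used here do not say how the GATA3 forms were put into the cells, how much GATA3 protein each line held, whether a line was 1 clone, or whether replicates were separate cultures, so the spread behind a p-value may be technical. Cells with an empty vector, labelled as 2 further samples, are not analysed here, and no region was compared with them.

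GATA3 is a zinc-finger transcription factor that recognises GATA words in DNA and can bind closed chromatin. It specifies luminal cells of the mammary gland and T helper cells, and its gene is among those most often mutated in breast cancer. Both point mutations lie at the C-terminal end of the protein, outside the zinc fingers. The series is concerned with mutations that alter protein degradation, and its design text states that the C-terminal tag stabilises GATA3 whatever the mutation. A different amount of GATA3 and a different choice of sites therefore cannot be told apart from these lists.

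A region was called G444E-side when both G444E libraries and neither WT library had a peak there, WT-side in the opposite case, and shared when all 4 libraries had one. Promoter sequences of the one-sided regions are shown first because they let a reader look for GATA words directly. The 3 promoters per side are those under the one-sided regions with the highest score percentiles, and each sequence holds the 250 bases before a RefSeq start site on GRCh38.p14, written 5′ to 3′ on the gene's strand. Capitals mark the GATA word AGATAA, its variant AGATAG, the variant with another first base TGATAA, or the variant that combines both changes, TGATAG. Both strands were searched, so a word on the opposite strand appears as its reverse complement, for example TTATCT for the first. The G444E-side promoters belong to SYNRG, a protein of the clathrin adaptor pathway, ACTR1A, the actin-related subunit of dynactin, and ZNF419, a zinc-finger gene:
SYNRG chr17:37609419-37609668 (minus strand): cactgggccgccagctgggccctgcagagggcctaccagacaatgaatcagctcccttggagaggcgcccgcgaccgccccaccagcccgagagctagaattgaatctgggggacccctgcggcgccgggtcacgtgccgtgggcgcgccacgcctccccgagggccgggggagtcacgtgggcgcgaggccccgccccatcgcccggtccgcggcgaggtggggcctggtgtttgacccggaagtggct
ACTR1A chr10:102502713-102502962 (minus strand): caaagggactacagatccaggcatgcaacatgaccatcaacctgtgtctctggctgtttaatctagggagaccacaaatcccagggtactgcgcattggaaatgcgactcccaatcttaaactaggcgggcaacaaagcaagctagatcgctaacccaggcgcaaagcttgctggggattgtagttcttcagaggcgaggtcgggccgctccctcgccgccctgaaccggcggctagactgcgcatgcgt
ZNF419 chr19:57487500-57487749 (plus strand): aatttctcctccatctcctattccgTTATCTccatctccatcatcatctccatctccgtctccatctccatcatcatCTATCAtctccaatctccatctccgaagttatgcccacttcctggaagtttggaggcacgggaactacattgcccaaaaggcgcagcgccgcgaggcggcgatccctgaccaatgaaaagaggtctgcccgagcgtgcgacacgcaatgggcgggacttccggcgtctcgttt

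The WT-side promoters belong to SPRR3, a small proline-rich protein of the cornified envelope, USF1, a helix-loop-helix transcription factor, and GALNT12, an enzyme that starts O-linked glycosylation:
SPRR3 chr1:153001499-153001748 (plus strand): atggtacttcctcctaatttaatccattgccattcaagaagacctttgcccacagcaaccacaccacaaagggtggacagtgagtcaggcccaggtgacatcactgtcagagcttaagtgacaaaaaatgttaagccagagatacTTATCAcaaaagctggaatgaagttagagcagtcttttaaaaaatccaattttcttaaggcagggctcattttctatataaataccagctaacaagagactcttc
USF1 chr1:161044985-161045234 (minus strand): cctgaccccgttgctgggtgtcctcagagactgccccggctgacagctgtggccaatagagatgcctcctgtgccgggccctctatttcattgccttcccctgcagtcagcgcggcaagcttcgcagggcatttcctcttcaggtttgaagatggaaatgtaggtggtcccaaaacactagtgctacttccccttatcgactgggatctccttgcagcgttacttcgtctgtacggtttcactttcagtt
GALNT12 chr9:98807420-98807669 (plus strand): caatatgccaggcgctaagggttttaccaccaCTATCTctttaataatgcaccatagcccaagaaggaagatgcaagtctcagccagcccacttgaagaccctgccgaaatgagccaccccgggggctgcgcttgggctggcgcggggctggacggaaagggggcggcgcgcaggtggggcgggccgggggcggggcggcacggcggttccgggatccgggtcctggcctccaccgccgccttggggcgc

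The ZNF419 window held 2 of these words, 225 and 173 bases before the start site. SPRR3 held 1 at 105 bases and GALNT12 held 1 at 218 bases before it. The GALNT12 word lies outside the called region, chr9:98807632-98808251, which overlaps only the downstream end of the window. SYNRG, ACTR1A and USF1 held none in these windows. The region at SPRR3 stood at score percentiles 81.7 and 72.9 of the WT lists, that at USF1 at 75.4 and 69.6, and that at GALNT12 at 63.2 and 74.7. On the other side, SYNRG stood at 79.1 and 70.0 of the G444E lists, ACTR1A at 77.0 and 63.5, and ZNF419 at 62.3 and 56.2. A score percentile gives the rank of a peak's deposited score within its own list, from 0 for the weakest to 100 for the strongest.

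Over all 22078 promoter windows of this length, 17.9% held at least 1 of the 4 words on either strand. Of the 83 windows overlapped by a G444E-side region, 20 (24.1%) did, and of the 29 overlapped by a WT-side region, 13 (44.8%) did. The share was 29.2% for the 305 windows overlapped by a shared region and 23.3% for the 1361 overlapped by any region of the 4 lists, so the G444E-side share lay near that of regions in general. The order was the same for the bare word GATA on either strand, which includes the longer words: 45.8% of G444E-side, 69.0% of WT-side and 49.5% of shared windows held it, against 42.5% of windows under any region and 39.9% of all windows. Base composition differed between the classes too. The median GC content was 62.8% in the G444E-side windows, 54.8% in the WT-side windows and 62.0% in all windows, and its part in the difference was not tested. The AP-1 words TGACTCA and TGAGTCA, which are recognised by FOS and JUN proteins, lay in 5 of the 83 G444E-side windows and 3 of the 29 WT-side windows, against 3.46% of all windows. These shares describe 29 and 83 promoters and carry no test.

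List lengths overlapped between the genotypes. G444E replicates 1 and 2 had 31200 and 26926 peaks, and WT replicates 1 and 2 had 28890 and 25248, so each genotype had 1 longer and 1 shorter list. The means were 29063 ± 3022 for G444E and 27069 ± 2575 for WT (SD, n = 2 each), a difference of 0.10 in log2. An exact permutation test, two-sided, gave p = 0.667, and 0.333 is the smallest p that 2 against 2 libraries allow. Without G444E replicate 1 the difference turned to -0.004. The number of sequenced reads behind the lists is unknown, so list length cannot be set against depth.

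Peak width did not overlap between the genotypes. Median peak width was 356 and 413 bp in the G444E libraries against 302 and 335 bp in the WT libraries, and the lists covered 13.07 and 13.25 Mb against 10.22 and 9.88 Mb. Both measures were higher in each G444E library than in either WT library, and covered length was 1.31-fold higher in G444E (exact permutation test, p = 0.333 for each, the smallest possible here). G444E peaks also lay more often inside protein-coding gene spans, at 51.9% and 52.5% of each list against 47.4% and 47.2%. Their median distance to a protein-coding gene start was 36342 and 37872 bp against 43296 and 45252 bp for WT, again without overlap (exact permutation test, p = 0.333 for both measures). The share of peaks within 1 kb of a start, 5.39% and 4.01% against 4.63% and 3.63%, overlapped between the genotypes (exact permutation test, p = 0.667), and without G444E replicate 1 that difference turned to -0.117 percentage points. With the tag, covered length was lower in G444E, at 16.79 and 16.95 Mb against 19.98 and 21.02 Mb in WT-FLAG. Tagged median widths overlapped, at 352 and 464 bp in G444E-FLAG against 388 and 467 bp. So did the shares inside gene spans, 52.4% and 53.1% against 52.8% and 53.2%, and the median distances, 33471 and 37379 bp against 34020 and 37258 bp.

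The WT lists stood apart in one other way. They held 110 and 84 peaks on contigs that are not placed on a chromosome, against 16 and 14 in the G444E lists. Untagged A442M held 75 and 57, and the 6 FLAG libraries held 16 to 24. The highest deposited score was 1694.2 and 1709.0 in the WT lists and 1047.3 and 922.1 in the G444E lists. G444E replicates 1 and 2 had 9 and 2 peaks on mitochondrial DNA, where the other 10 libraries had none. Whether these features belong to the genotype or to the making of the libraries cannot be told apart with these samples.

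Of the 47173 regions, 13336 (28.3%) were shared by all 4 libraries. G444E-side regions numbered 4145, which is 8.79% of all regions, and WT-side regions numbered 2932, or 6.22%. Regions called in G444E replicate 1 alone (5392) and in WT replicate 1 alone (4419) were more numerous than the G444E-side set. Replicates overlapped more than genotypes did: the regions common to 2 libraries made up 0.567 of the regions of either for the G444E pair and 0.562 for the WT pair. The 4 pairs across genotypes lay between 0.433 and 0.498. Score percentiles of shared regions had a Pearson correlation of 0.790 between the G444E libraries and 0.801 between the WT libraries, and of 0.562 to 0.676 across genotypes, over 13336 regions that share their libraries and are not independent.

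**Figure D1:**
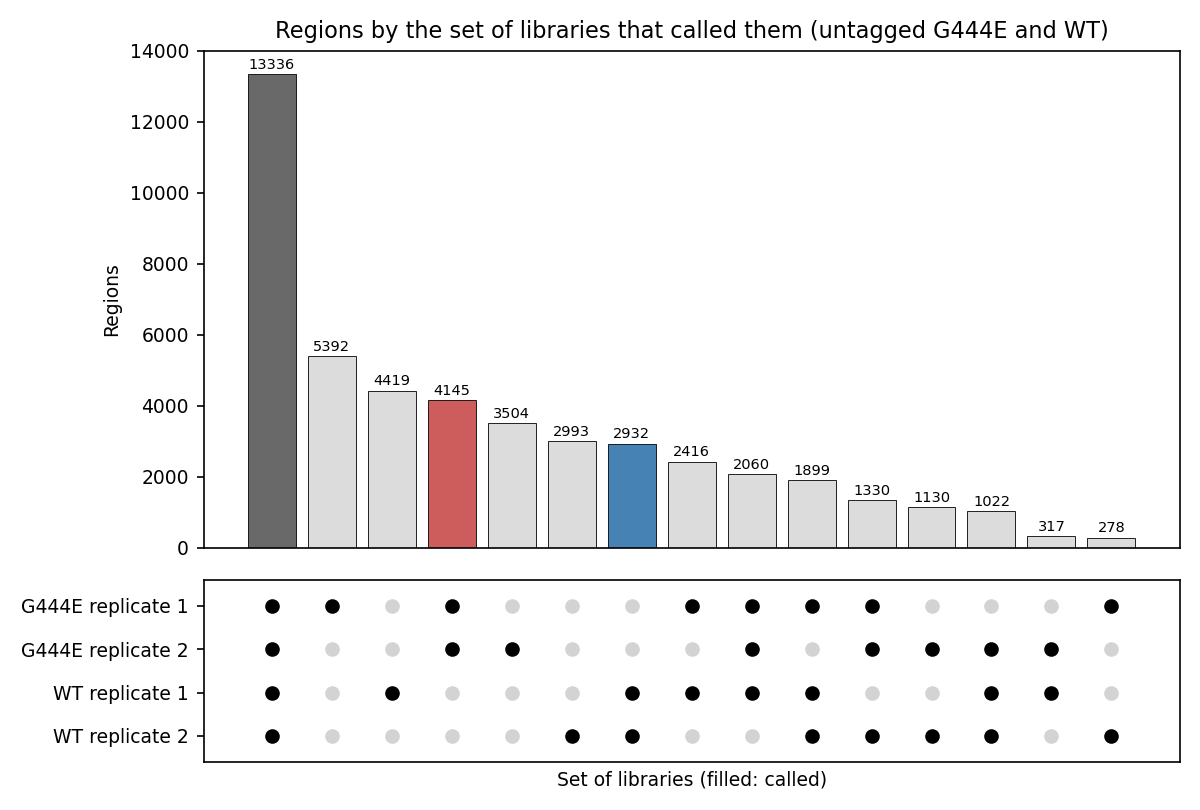
Number of regions (y axis) for each set of the 4 untagged libraries that called them; black circles mark the calling libraries, and red, blue and dark grey bars mark G444E-side, WT-side and shared regions. The 13336 shared regions form the tallest bar, and regions of 1 library (5392 and 4419 for both replicates 1) stand beside the 4145 G444E-side and 2932 WT-side regions.

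The one-sided sets depend on where a list ends. With all 4 lists cut to their best 25248 peaks, 3368 regions were G444E-side and 3039 WT-side, so the surplus on the G444E side shrank. With peaks required to cover 50% of a region it widened, to 5864 against 2998. There a library whose peaks cover less counts as not called, so a one-sided region can hold a peak of the other genotype. Most one-sided regions were of low rank. The median of the lower percentile of both calling lists was 29.7 for G444E-side and 32.7 for WT-side regions, against 54.5 for shared regions. Regions in the upper part of both calling lists, with both percentiles at 50 or above, were termed strong. There were 1043 strong G444E-side regions (2.21% of all regions) and 871 strong WT-side regions (1.85%). The last region inside that limit stood at 50.076 on the G444E side and 50.026 on the WT side, and the first outside at 49.961 and 49.997. Which side had more strong regions depended on the setting: with equal lists the sets numbered 796 and 830, with both percentiles at 75 or above 189 and 257, and with peaks required to cover 50% of the region 2424 and 1020.

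**Figure D2:**
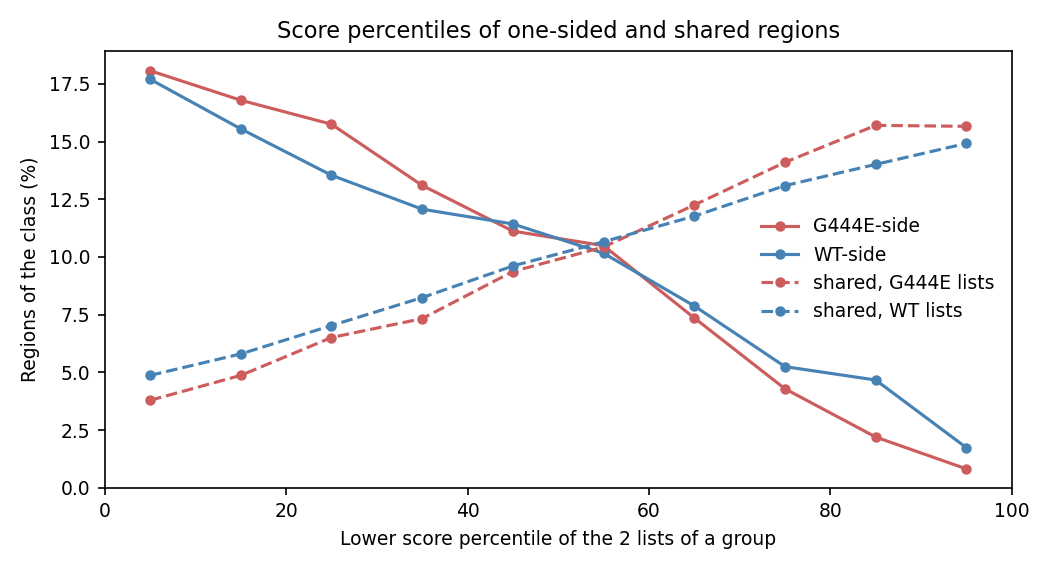
Percent of the regions of a class (y axis) by the lower of the score percentiles in both lists of the genotype (x axis, steps of 10). Solid lines are one-sided regions, which fall from 18.07% and 17.7% in the lowest step to 0.82% (G444E-side) and 1.74% (WT-side) in the highest; dashed lines are the shared regions in the lists of each genotype, which rise.

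The G444E-side region with the highest rank lay inside AOPEP, an aminopeptidase gene, at chr9:94743284-94744394 and 17140 bp from a start. Its deposited scores were 238.6 and 196.4 in the G444E lists, at percentiles 99.1 and 98.7, and neither WT list had a peak there. It ranked among the strongest sites of both mutant libraries and was not called in either wildtype library. The next with a gene start within 100 kb lay between genes, 59646 bp from ADGRG6, an adhesion G protein-coupled receptor. It lay at chr6:142242033-142242689, with a percentile of 96.7 in both G444E lists. A region 1929 bp from SIGLEC5, a sialic acid receptor of myeloid cells, had percentiles 95.2 and 95.7. A region inside PTPN14, a phosphatase gene whose product restrains YAP, had 95.1 and 96.4, with the start of the methyltransferase gene SMYD2 as the nearest at 97054 bp.

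The remaining 6 of the 10 highest ranked G444E-side regions within 100 kb of a start stood at percentiles of 92.9 to 97.2. They lay near TRAF4, a signalling adaptor (inside NEK8, 4118 bp from the TRAF4 start), inside C19orf47, near CAP2, a regulator of actin, inside SECISBP2L, inside PPARD, a nuclear receptor of fatty acids, and 24254 bp from PITX1, a homeodomain factor of the hindlimb. The regions at CAP2 and PPARD were 3226 and 4254 bp from a start. All 10 were called in each of the 8 libraries not used to choose them, WT-FLAG included. All 10 also remained G444E-side with equal lists, with a score of at least 10 and with peaks required to cover 50% of the region. These settings only take peaks away, so none could add a WT call. Regions of this rank also lay well above the cuts in length and score, so little could have changed.

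Among WT-side regions within 100 kb of a gene start, those of highest rank had another pattern. Of the 100 highest ranked regions per side, 41 on the WT side and 18 on the G444E side had no start that near. The lower percentile reached 99.2 over all WT-side regions. The first region with a start within 100 kb lay inside IL16, the gene of a lymphocyte chemoattractant, at chr15:81266366-81266810 and 30382 bp from a start. Its deposited scores were 207.4 and 231.5 in the WT lists (percentiles 97.9 and 98.7). Outside WT it was called in both untagged A442M libraries and in no FLAG library. A region inside PTGDR, a receptor for prostaglandin D, had percentiles 97.9 and 97.7 and recurred in A442M replicate 1. A region 3037 bp from a start of BCOR, a transcriptional corepressor, at chrX:40174016-40174465, had 97.5 and 97.9 and recurred in both A442M libraries.

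Another 6 stood at percentiles of 93.8 to 98.1. They lay inside PTPRJ, a receptor phosphatase, inside TBC1D22A (nearest start LOC124905139), and near ZNF337, NOG, a secreted inhibitor of BMP signals, OR5AU1, an olfactory receptor, and OTUD1, a deubiquitinase. Distances from the start of NOG and OTUD1 were 84382 and 75478 bp. The region near NOG, at percentiles 97.4 and 95.3, was called in none of the other 8 libraries, and the other 5 were called in both A442M libraries and in no FLAG library. All 9 described here kept their class under the same 3 settings as above, none of which could add a G444E call.

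Libraries that had no part in choosing the regions separated the sides. Of the G444E-side regions, WT-FLAG replicates 1 and 2 called 93.7% and 92.5%, A442M-FLAG 93.1% and 91.2%, and G444E-FLAG 90.4% and 85.0%. Of all 47173 regions the same 6 FLAG libraries called 56.6% to 70.4%. Untagged A442M called 73.8% and 72.5% of the G444E-side regions, beside 70.7% and 65.7% of all regions. Sites called with G444E and not with untagged WT were thus found again with tagged WT about as often as with tagged G444E. Of the 4145 regions, 2118 (51.1%) were called in all 8 other libraries and 7 (0.169%) in none, against 36.2% and 7.78% of all regions. Those called in both G444E-FLAG and in no WT-FLAG library, which would repeat the untagged difference, numbered 15 (0.362%), against 0.475% of all 47173 regions.

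WT-side regions were seldom found with the tag. WT-FLAG replicates 1 and 2 called 24.8% and 19.5% of them, A442M-FLAG 24.0% and 17.9%, and G444E-FLAG 22.6% and 13.5%, against 56.6% to 70.4% of all regions in these 6 libraries. Untagged A442M called 71.5% and 67.3% of them, near its 70.7% and 65.7% of all regions. No FLAG library called 1552 (52.9%) of them, against 14.3% of all regions, and none of the 8 libraries called 391 (13.3%), against 7.78%. Calls in both WT-FLAG libraries with none in G444E-FLAG numbered 64 (2.18%), against 1.72% of all regions. Shared regions were called at 90.1% to 99.2% in each of the 8 libraries. The one-sided classes share the WT and G444E lists with each other, and the 6 FLAG lists, at 30026 to 51694 peaks, were mostly longer than the untagged WT and G444E lists, and the part of list length in these shares was not tested.

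**Figure D3:**
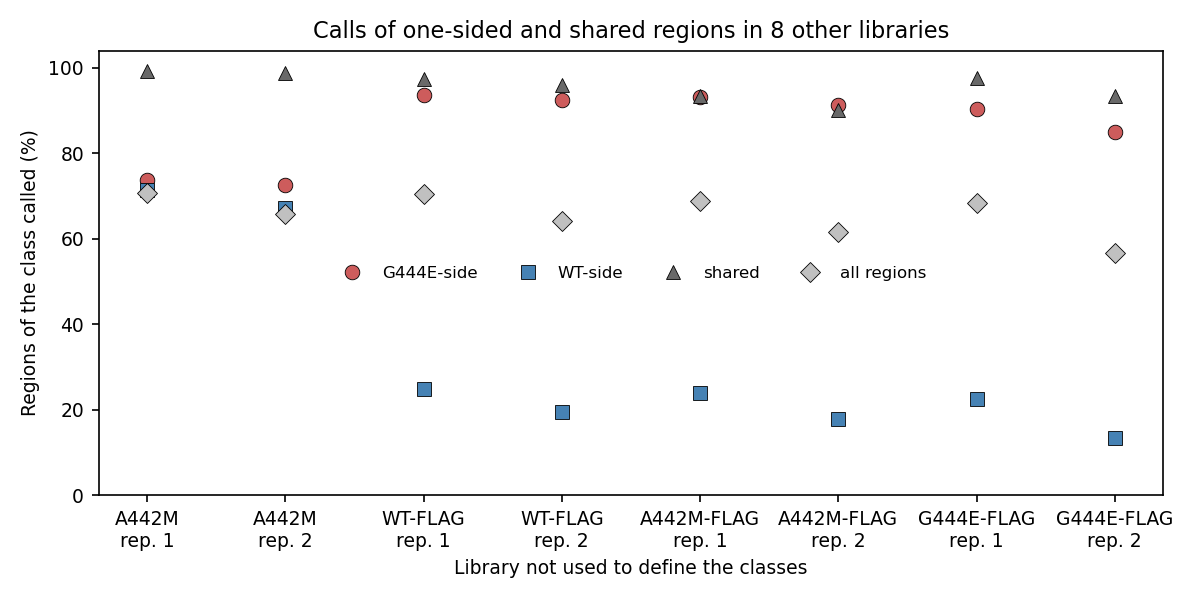
Percent of each class of regions (y axis) called in the 8 libraries not used to define the classes (x axis). G444E-side regions (circles) lie at 85.0% to 93.7% in the 6 FLAG libraries and WT-side regions (squares) at 13.5% to 24.8%, while in the 2 untagged A442M libraries both lie between 67.3% and 73.8%.

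The contrast was wider among strong regions. Of the 1043 strong G444E-side regions, 842 (80.7%) were called in all 8 other libraries and 97.6% in both WT-FLAG libraries. Of the 871 strong WT-side regions, 18 were called in all 8, 8.73% in both WT-FLAG libraries, and 304 (34.9%) in both A442M and no FLAG library. Over all regions these shares were 36.2% in all 8, 56.3% in both WT-FLAG libraries and 2.34% in both A442M and no FLAG library. All regions also include those of low rank and those of only 1 library, which the strong sets leave out. Of the shared regions the shares were 82.5%, 94.2% and 0.12%. Among the 100 regions of highest rank per side, 98 on the G444E side and 0 on the WT side were called in all 8.

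Location differed as well. G444E-side regions lay inside a protein-coding gene span in 58.1% of cases, WT-side regions in 37.3% and all regions in 49.8%. The median distance to a protein-coding gene start was 35324 bp for G444E-side, 72718 bp for WT-side and 40284 bp for all regions. Regions over 100 kb from any start made up 22.2%, 43.3% and 27.4% of these sets. Of the WT-side regions 47 lay on unplaced contigs and 302 over 500 kb from a start, where the G444E side had 0 and 62. Among regions within 500 kb of a start (4081 and 2583), the medians were 34401 and 59877 bp, and with equal lists over all distances 34905 and 68806 bp. Near starts the sides differed less, with 143 G444E-side regions (3.45%) and 69 WT-side regions (2.35%) within 1 kb, both below the 5.18% of all regions. G444E-side regions were also wider, with a median of 422 bp against 333 bp.

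**Figure D4:**
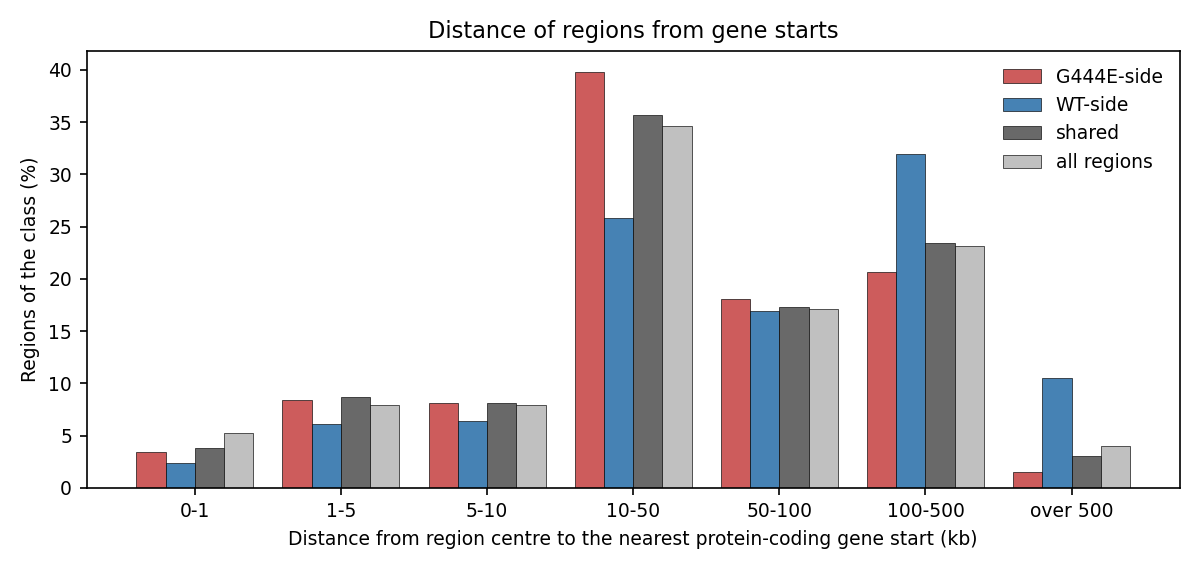
Percent of the regions of each class on placed chromosomes (y axis) by distance from the region's centre to the nearest protein-coding gene start (x axis, kb). WT-side regions hold 31.92% at 100 to 500 kb and 10.47% beyond 500 kb, against 20.69% and 1.5% of G444E-side regions, which peak at 10 to 50 kb with 39.83%.

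Among the 13336 shared regions, 824 (6.18%) ranked higher in both G444E lists than in either WT list by 20 percentile points or more, and 457 (3.43%) ranked higher in both WT lists by as much. At that limit, the nearest regions inside and outside had gaps of 20.005 and 19.996 points on the G444E side and of 20.057 and 19.978 on the WT side. With equal lists the sets numbered 685 and 584. Regions ranked higher in G444E had median percentiles of 80.0 and 79.1 in the G444E lists and 38.4 and 36.3 in the WT lists. Those ranked higher in WT had 36.1 and 35.2 in the G444E lists against 77.4 and 77.1.

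Among shared regions within 100 kb of a gene start, the widest gap toward G444E lay 30985 bp from PARL, at chr3:183915477-183916254. PARL is a protease of the inner mitochondrial membrane. The percentiles of this region were 95.8 and 94.1 in the G444E lists and 12.2 and 14.4 in the WT lists, with scores of 126.7 and 104.6 against 7.5 and 8.2. The next 4 lay inside CFAP210 (nearest start PPIG, a cyclophilin), inside ACTR2, a subunit of the Arp2/3 complex that branches actin, inside CSTPP1, and 70113 bp from CBR4, a reductase of fatty acid synthesis. The ACTR2 region, 5155 bp from a start, stood at 86.0 and 88.9 against 14.7 and 7.3. All 5 were called in each of the other 8 libraries.

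Toward WT, the widest gap among regions within 100 kb of a start lay 20013 bp from MMP10, a secreted metalloproteinase, at chr11:102760343-102760888. Its percentiles were 23.4 and 8.3 in the G444E lists and 96.3 and 93.5 in the WT lists. The next was 41534 bp from PMFBP1. A region inside RUNX1, a Runt factor of blood and breast epithelium, at chr21:34865390-34866191, had 2.9 and 6.1 against 63.6 and 77.8. A region inside WWTR1, which encodes the Hippo coactivator TAZ, had 0.6 and 12.9 against 67.6 and 70.3, and a region inside LAMA4, a laminin chain, had 14.0 and 9.4 against 74.4 and 67.6. These 5 regions were called in both A442M and both WT-FLAG libraries. In G444E-FLAG, the region at LAMA4 was called in both libraries, those at MMP10 and RUNX1 in 1, and those at PMFBP1 and WWTR1 in none.

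With the tag, the shift was small where it could be measured. All 4 tagged WT and G444E libraries called 812 of the 824 regions ranked higher in G444E. For these the median difference of G444E-FLAG from WT-FLAG was -2.05 percentile points, and 21.6% lay above 0. Of the 457 regions ranked higher in WT they called only 272, for which the median was -1.92 points, with 41.9% above 0. The others, among them those at MMP10, PMFBP1, RUNX1 and WWTR1, lacked a call in at least 1 tagged library, so their tagged shift was not measured. Over all 11941 shared regions called in these 4 tagged libraries the median was -1.24 points, with 35.9% above 0. Across these regions the untagged and tagged differences had a Pearson correlation of -0.039, a description over regions of the same libraries.

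At GATA3 itself, on chr10:8045333-8075198, both classes of one-sided region occurred. A region inside the gene, chr10:8070722-8071899, was called in all 12 libraries, at percentiles 31.2 and 44.1 in the G444E lists and 57.8 and 27.8 in the WT lists, which overlap. A WT-side region lay 18250 bp from a start, at chr10:8026844-8027322, with percentiles 38.2 and 20.5. G444E-side regions lay 24435, 40181 and 62759 bp from the nearest start. The first, chr10:8084763-8085022, had percentiles 53.7 and 59.8, the second 51.9 and 38.6, and the last 12.7 and 5.3. Both WT-FLAG libraries called the first 2 of them.

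Genes with many one-sided regions within 50 kb of a start were counted next. AOPEP had 7 G444E-side regions and no WT-side region, at percentiles from 3.4 to 99.1, all within its own span. UBE2H, a ubiquitin-conjugating enzyme, also had 7, with no percentile above 71.8, and 5 shared regions. GRAMD2B, a protein of membrane contact sites, had 6 beside 8 shared regions, with its highest at 75.6 and 81.2. On the WT side ENPP4 and ENPP5, neighbouring nucleotide pyrophosphatase genes on chromosome 6, shared the same 4 regions, the highest at 69.0 and 73.2. IL1B, an inflammatory cytokine, had 4 between its neighbours IL1A and IL37, at percentiles from 1.1 to 53.0, and 1 G444E-side region.

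Of all 20037 protein-coding genes, 17% had a G444E-side region within 50 kb of a start, 8.54% had a WT-side region and 38.8% had a shared one. Gene lists were read against these shares. Luminal epithelial genes had a G444E-side region near 11 of 25 members and a WT-side region near none, and a shared region near 16. The 11 were CDH1 (E-cadherin), the keratins KRT7, KRT8, KRT18 and KRT19, CLDN4, ELF3, GRHL2, MUC1, TFF1 and TFF3, of which neighbouring genes such as KRT8 and KRT18 can share a region. The highest ranked lay 3982 bp from KRT13 in the keratin cluster next to KRT19, at percentiles 40.7 and 46.4, and also counted for KRT15 of the basal list. The one near the epithelial factor GRHL2 stood at 32.7 and 60.3. These were regions of low to middle rank. With equal lists 6 of the 25 genes were near a G444E-side region and none was near a WT-side one, while the share over all genes was 14.3%.

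Hippo pathway genes, which act in YAP and TAZ signalling, had a G444E-side region near 10 of 22 members, a WT-side region near none and a shared region near 19. TEAD1, a DNA-binding partner of YAP, had 5 G444E-side regions, the highest at 64.4 and 73.3. F3, tissue factor, had the highest ranked of the list, 40875 bp from its start at 82.9 and 85.9. CCN2, a secreted target of YAP, had one 232 bp from its start at 42.1 and 27.9. ANKRD1, CCN1, FJX1, TEAD3, TEAD4, TGFB2 and WWTR1 were the others. With equal lists 11 members were near a G444E-side region and 2 near a WT-side region. A shared region was near 64.0% of the luminal and 86.4% of the Hippo list, against 38.8% of all genes, and the part of this general density of GATA3 regions in the one-sided counts was not tested.

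GATA factors and their cofactors had a G444E-side region near 6 of 13 members and a WT-side region near 4, with GATA3 and TRPS1, a GATA-type repressor, in both counts. RUNX3 had 3 WT-side regions and no G444E-side one. Its highest, inside the gene at chr1:24952303-24952784 and 12467 bp from a start, stood at 85.3 and 94.3 and was called elsewhere in the 2 A442M libraries. Next to TRPS1, one-sided regions of both classes lay on its flank at similar rank, 62.2 and 71.2 for the G444E side and 61.9 and 65.8 for the WT side. LMO4, RUNX1, ZFPM1 and ZFPM2 had a G444E-side region and GATA4 a WT-side region. A shared region was near 69.2% of this list and 87.5% of the basal list, against 38.8% of all genes. The part of this density in the one-sided counts was not tested.

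Basal epithelial genes had a G444E-side region near 7 of 16 members and a WT-side region near 3. EGFR had 1 of each, a G444E-side region 24460 bp from its start at 70.3 and 62.1 and a WT-side region inside the gene at 22.8 and 51.5. COL17A1, a collagen of the hemidesmosome, had 2 WT-side regions, the highest at 65.8 and 56.2. Mesenchymal genes had a G444E-side region near 7 of 19 members and a WT-side region near 4. The highest ranked WT-side regions of this list lay near SNAI1, a repressor of E-cadherin, at 82.4 and 79.0 and near the homeodomain factor PRRX1 at 75.2 and 80.0, each called elsewhere in both A442M libraries only. SNAI2 had 1 region of each class, the WT-side one 683 bp from its start at 72.4 and 36.1. CDH2 had a WT-side region, and ACTA2, COL1A1, COL1A2, FN1, S100A4 and ZEB1 had a G444E-side one, the highest of them near COL1A1 at 53.7 and 60.5.

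TGF-beta pathway genes had a G444E-side region near 5 of 17 members and a WT-side region near 2. TGFBR2, the type II receptor, had 3 G444E-side regions, the highest inside the gene at 70.7 and 69.3. SMAD3, a signal transducer, had 3 G444E-side, 2 WT-side and 9 shared regions. SMAD7, an inhibitor of the pathway, had a WT-side region 38 bp from its start at 13.1 and 10.2. Ubiquitin and proteasome genes had a G444E-side region near 4 of 20 members and a WT-side region near 1. FBXW7 and BTRC, substrate receptors of ubiquitin ligases, and the scaffold CUL1 carried theirs inside the gene, FBXW7 at 66.5 and 79.1. With equal lists the WT-side count of this list was 4. Cell-cycle genes had 5 of 17 near a G444E-side region and none near a WT-side one, all of low rank, with CDKN1B the highest at 26.5 and 15.3.

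Breast metastasis genes counted 3 of 19 on the G444E side and 1 on the WT side, AP-1 genes 2 of 10 and 0, and housekeeping genes 2 of 15 and 0. Interferon response genes counted 4 of 16 and 1, with IFI44 at 83.3 and 77.6. T helper genes, where GATA3 drives the type 2 cytokines, counted 3 of 16 on each side, and IL5 had 1 region of each class, a G444E-side one inside its span at 76.7 and 71.0 and a WT-side one at 15.3 and 23.5. In 3 lists of other lineages the WT side had the higher count: erythroid genes counted 1 of 16 and 2, neuronal genes 1 of 15 and 3, and muscle genes 0 of 15 and 1. Counts this small carry no test, and the nearest gene of a region need not be its target.

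**Figure D5:**
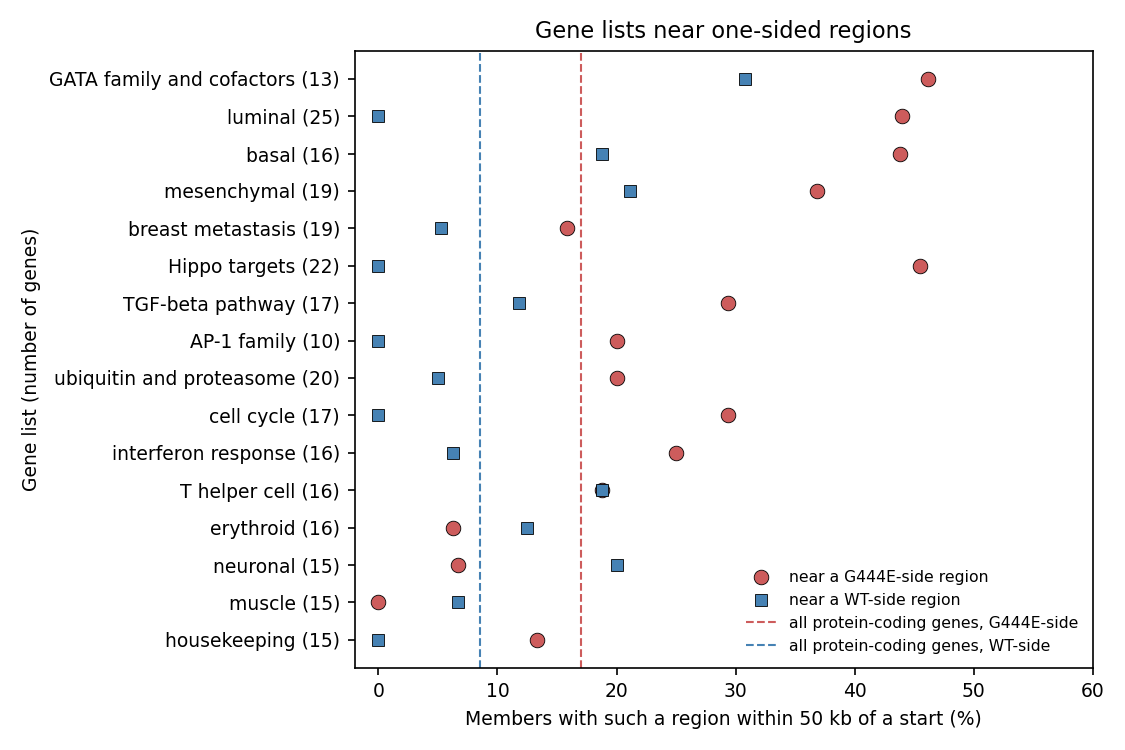
Percent of the genes of each list (y axis, number of genes in brackets) with a G444E-side region (circles) or a WT-side region (squares) within 50 kb of a start (x axis); dashed lines mark 17% and 8.54% of all protein-coding genes. The luminal and Hippo lists stand at 44.0% and 45.5% on the G444E side and at 0 on the WT side. The GATA and basal lists stand at 46.2% and 43.8% on the G444E side and at 30.8% and 18.8% on the WT side. In the T helper list both markers coincide at 18.8%.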

How the data were processed

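Each deposited file lists 1 library's peaks on hg38 in 5 columns without a header, with a score per peak made by the authors on a scale the files do not name. Scores served for ranking and filtering inside a list. MACS2 2.1.4 and FastQC were used, per the submitters' processing notes; the aligner, control and filters are not stated there, and read depth is unknown. Peak names are numbered, and 89.1% to 90.7% of the numbers occurred in the 4 lists, so peaks had been removed before deposit.

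Peaks were merged at 1 bp overlap, and a percentile was computed per list from the best peak of a region. Two-sided exact permutation tests compared values per library. Counts of regions were not tested. Genes and promoter sequences came from RefSeq on GRCh38.p14, with start sites for 15843 of 20037 protein-coding genes and the nearer end of the gene span for 4194. Exons and introns were not assigned. All 271 entries of 16 gene lists matched. Coordinates are 1-based.

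Regions were named by the nearest gene within 100 kb: 10 per side by the lower percentile, 5 shared ones per direction by gap, the 3 genes per side with most regions, up to 3 members of each list per side, and GATA3; 1 region that this rule names is not reported here, and other list members are named to complete a count. The regions, lists and rules were chosen with earlier results of these data known. Python 3.11.15 with pandas 2.3.3, NumPy 2.4.6, SciPy 1.17.1 and matplotlib 3.10.9 was used, and the classification was tested on simulated lists.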

Additional observations from a re-analysis of the deposited data

Results flagged for a closer look

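The difference in list length between G444E and WT had opposite signs without and with the tag. Untagged, log2 peak number was higher in G444E by 0.11 in replicates 1 and by 0.09 in replicates 2. With FLAG it was -0.10 and -0.30. The means were 0.10 and -0.20, which differ by 0.30. An exact permutation test of that difference, two-sided over 36 arrangements, gave p = 0.389. With replicates mixed, the difference thus did not exceed the spread between libraries. The test did not keep replicate numbers together, and replicate 1 had the longer list in each of these groups. Its p therefore does not measure the spread of the differences between libraries of the same number.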

How the results depend on the processing

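List length and read depth limit every call, since a region just under a library's calling limit counts as not called. Leaving out 1 library at a time gave 5476 to 9649 G444E-side and 3973 to 7378 WT-side regions, 1454 to 2084 and 1214 to 1696 strong ones, and 1263 to 2108 and 728 to 1440 shared regions ranked higher in G444E and in WT; with 1 library fewer a class needs fewer calls to agree, so counts rise by construction. The difference in log2 peak number ran from -0.004 to 0.208 and that in the percent of peaks at gene starts from -0.117 to 1.26, both negative without G444E replicate 1. Requiring peaks to cover 50% of a region gave 5864 G444E-side and 2998 WT-side regions, and 2424 and 1020 strong ones. It left 234 and 280 shared regions ranked higher in G444E and WT. Under this setting a narrow peak in a wide region counts as not called, so regions leave the shared class although a peak is there. Peaks of the WT lists were the narrower ones, and the part of peak width in these counts was not tested. A percentile of at least 75 left 189 and 257 strong regions. A gap of 10 points gave 1861 and 1172 shared regions and a gap of 30 points 360 and 195. The mean share of G444E-side regions called in WT-FLAG, 93.1%, was 95.3% with equal lists and 96.8% with a score of at least 10, and that in G444E-FLAG rose from 87.7% to 93.3% with that score. For WT-side regions the share in WT-FLAG rose from 22.2% to 27.9% and 30.05%, and that in G444E-FLAG from 18.0% to 25.5%. The labels number the replicates without saying what a number shares. Between genotypes the difference of replicate 1 from replicate 2 had a correlation of 0.501 over percentiles of shared regions and 0.175 over calls. With the replicate block, comparing same-number libraries only, 1223 and 701 shared regions ranked higher in G444E and in WT. Both permutation tests then gave p = 0.5, the smallest two-sided value that this pairing allows. Limiting regions to 500 kb from a gene start, chosen after seeing the data, left 4081 G444E-side and 2583 WT-side regions. At a distance of 10 kb instead of 50 kb, 915 genes had a G444E-side and 474 a WT-side region, and most list counts fell to between 0 and 3.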

Other observations

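One-sided regions also came in runs, with neither a shared region nor one of the opposite side between them. These were chosen after their values were seen. On the G444E side 2 runs held 7 regions, 1 on chr5:56476145-56640163 that overlaps no protein-coding gene and 1 on chr20:31723763-32281314, which carries BCL2L1, an inhibitor of apoptosis, the spindle protein gene TPX2 and others. A run of 6 on chr17:59418828-59777190 holds CLTC, the clathrin heavy chain, and VMP1, an autophagy gene. On the WT side the longest run held 19 regions on chr1:122527159-143264197, a stretch of 20737 kb across the centromere that overlaps no protein-coding gene. A WT-side run of 6 on chr1:152517257-153471044 covers the epidermal differentiation cluster, with IVL, LORICRIN and the LCE and SPRR families of cornified envelope genes, among them SPRR3, whose promoter is printed above. Another 6 are spread over 1067.4 kb on chr16:85757201-86824616. That stretch holds COX4I1, EMC8, MTHFSD, IRF8 and the genes of FOXF1, FOXC2 and FOXL1, forkhead factors of mesenchyme. No WT-side region lay within 50 kb of a start of FOXC2.

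The balance of the sides also differed between chromosomes with 100 regions or more. G444E-side regions outnumbered WT-side ones by 152 to 57 on chromosome 17, 80 to 32 on chromosome 19 and 59 to 24 on chromosome 22, while WT-side regions were more numerous on chromosomes 21 (45 against 27), X (112 against 86), 13 (84 against 70) and 18 (86 against 84). Across 23 chromosomes the log2 ratio of G444E-side to WT-side regions had a Pearson correlation of 0.674 with the log2 number of protein-coding genes per Mb, given as a description.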
